A study of Mus musculus with 6 samples.

Results

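The genes described here are 33 genes of ribosome biogenesis and cell growth that the transcription factor Myc is known to drive. They were taken by name from the array's probe table, where symbols are in capitals (NCL, NPM1, ODC1, CAD, SRM and so on), with an older alias each for Nop56, Nop58 and Nop2, and each was read by its brightest probe among those detected on all 6 arrays. Of the 33 genes, 25 were measured, among 10904 genes with a tested probe. Fbl, Polr1a, Polr1b, Utp20 and Nop16 had no probe under the names searched. Nolc1 was detected on 5 arrays, and the probes of Dkc1 and Wdr12 were not detected on any. Total RNA was measured on Illumina whole-genome bead arrays, 1 per sample, from sorted pre-B cells, an early stage of the lineage that makes antibodies, of embryos at E17.5. The first group was Smchd1 null (3 arrays), homozygous for a gene trap allele of Smchd1, a chromatin protein with a role in gene silencing. The other was Smchd1 wildtype (3 arrays). Every embryo of either group was on the C57BL/6 background and carried the Eµ-Myc transgene, in which an immunoglobulin heavy chain enhancer drives Myc in B lineage cells, so that no sample without the transgene was measured. Organ and sorting gate are not labelled. Nor do the labels say that the 3 samples of a group came from different embryos, and the p-values cover only the variation among these 6 arrays, which may be technical.

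A ribosome begins in the nucleolus, where RNA polymerase I transcribes the precursor of the ribosomal RNAs. Small nucleolar ribonucleoproteins (snoRNPs) then modify this precursor, the small subunit processome cuts and folds it, and further factors assemble the large subunit. Myc with its partner Max binds the E-box CACGTG, raises the transcription of many of these factors and of enzymes for polyamines and nucleotides, and so couples ribosome supply to proliferation. Eµ-Myc mice are a classical model of B cell lymphoma, in which pre-B cells expand before tumours appear.

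The promoters of 6 of these genes are printed because they hold the E-box. A window from 250 bases before to 50 bases after each gene's start was available for 21 of the 25 measured genes, from RefSeq on build GRCm38.p6, and none was given for Bop1, Npm1, Rrs1 and Srm. CACGTG, which reads the same on both strands, occurred in the window of 7 of these 21 genes (33.3%). Counted by gene in the same way, the share was 8.09% among all 27025 genes with a window and 12.3% among the 7305 tested genes with one. Counted by window, it was 7.15% among all 32851 windows of this length that were given. In the sequences below, written 5′ to 3′ on the gene's strand, the capitals mark CACGTG.
Wdr43, chr17:71615965-71616264, plus strand: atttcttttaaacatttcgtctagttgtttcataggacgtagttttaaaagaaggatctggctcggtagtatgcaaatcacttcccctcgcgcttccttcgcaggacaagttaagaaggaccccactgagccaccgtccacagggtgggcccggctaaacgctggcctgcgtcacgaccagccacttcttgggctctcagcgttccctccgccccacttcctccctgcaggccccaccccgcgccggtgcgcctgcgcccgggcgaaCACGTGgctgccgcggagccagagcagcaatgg
Nme1, chr11:93967976-93968275, minus strand: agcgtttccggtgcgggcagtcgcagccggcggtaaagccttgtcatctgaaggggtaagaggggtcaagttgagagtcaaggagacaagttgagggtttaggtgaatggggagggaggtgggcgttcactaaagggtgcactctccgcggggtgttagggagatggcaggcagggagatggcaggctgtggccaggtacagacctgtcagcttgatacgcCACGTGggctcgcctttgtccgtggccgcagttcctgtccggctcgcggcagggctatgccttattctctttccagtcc
Hspd1, chr1:55088194-55088493, minus strand: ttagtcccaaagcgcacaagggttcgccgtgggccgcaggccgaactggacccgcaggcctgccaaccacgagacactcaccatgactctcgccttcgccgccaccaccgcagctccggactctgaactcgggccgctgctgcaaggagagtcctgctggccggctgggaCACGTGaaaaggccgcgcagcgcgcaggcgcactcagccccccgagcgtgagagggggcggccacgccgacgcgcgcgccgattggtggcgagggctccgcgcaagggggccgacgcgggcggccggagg
Nop2, chr6:125131633-125131932, plus strand: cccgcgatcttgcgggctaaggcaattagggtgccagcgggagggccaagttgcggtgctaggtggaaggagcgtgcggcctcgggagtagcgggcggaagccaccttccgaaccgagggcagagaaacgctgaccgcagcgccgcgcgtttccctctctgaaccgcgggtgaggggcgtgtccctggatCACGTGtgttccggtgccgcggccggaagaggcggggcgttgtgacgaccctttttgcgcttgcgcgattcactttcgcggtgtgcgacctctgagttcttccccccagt
Mybbp1a, chr11:72441077-72441376, plus strand: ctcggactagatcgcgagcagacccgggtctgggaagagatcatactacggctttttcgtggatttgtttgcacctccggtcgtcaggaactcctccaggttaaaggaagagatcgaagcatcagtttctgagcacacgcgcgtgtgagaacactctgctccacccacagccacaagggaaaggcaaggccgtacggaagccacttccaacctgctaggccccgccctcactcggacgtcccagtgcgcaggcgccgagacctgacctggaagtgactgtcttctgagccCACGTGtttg
Tsr1, chr11:74897830-74898129, plus strand: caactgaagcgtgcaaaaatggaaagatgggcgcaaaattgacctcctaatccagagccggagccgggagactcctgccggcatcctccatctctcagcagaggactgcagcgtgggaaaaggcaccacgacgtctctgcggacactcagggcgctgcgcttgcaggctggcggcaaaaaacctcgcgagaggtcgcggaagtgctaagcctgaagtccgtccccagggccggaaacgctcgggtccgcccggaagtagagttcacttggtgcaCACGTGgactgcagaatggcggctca
The E-box began 18 bases downstream of the gene's start in Wdr43, 41 downstream in Mybbp1a and 25 downstream in Tsr1. It began 29 bases upstream in Nme1, 80 upstream in Hspd1 and 60 upstream in Nop2. A second window of Nme1 held another, 18 bases upstream of its start. The seventh gene was Pes1, with CACGTG 3 bases downstream. The genes of the mitochondrial chaperonin and its co-chaperonin, Hspd1 and Hspe1, lie head to head on chromosome 1, and a second window of Hspd1 shares 285 bases with that of Hspe1. A match of letters is no evidence of binding, and no factor's binding was measured here.

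The arrays differed in how they resembled each other. Between 15309 and 16357 of the 45281 probes were detected per null array, against 15551 to 16447 per wildtype array. Smchd1 null replicate 3 correlated less with the rest over the tested probes (r = 0.946 to 0.956) than the other 5 arrays did among themselves (r = 0.984 to 0.994). Its negative control probes averaged 136.2, against 140.5 and 152.1 on the other null arrays and 147.6 to 165.9 on the wildtype arrays. Its 16357 detected probes, biotin control mean of 19500 and housekeeping probe median of 8191 lay within the range of the other arrays. The brightest Smchd1 probe had log2 intensities of 4.64, 5.03 and 4.96 in null replicates 1, 2 and 3, where it was not detected, against 9.50, 9.65 and 9.67 in wildtype replicates 1, 2 and 3. The probe's adjusted limma p was 5.6e-05. A second probe was also detected on the wildtype arrays alone (log2 fold change -2.41, limma adjusted p = 0.00945). Another was detected on all 6 arrays, at 6.13, 5.15 and 5.43 in the null replicates, against 6.90, 6.64 and 6.43 in wildtype, and did not pass the test (limma adjusted p = 0.86). The other 2 Smchd1 probes were not detected on any array. Where each probe lies relative to the gene trap is not known here, so these values check the labels only on the probes that differ.

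With all arrays, none of the 25 genes differed between Smchd1 null and wildtype beyond the spread between arrays. In null replicates 1 and 2 they stood within -0.32 to 0.46 of the wildtype mean, and in null replicate 3 each was at its lowest of the 6 arrays. All values are log2 intensities after background correction and quantile normalization, which makes the distribution of intensities the same on each array, so that a difference of 1 is a factor of 2. In limma's linear model fitted over all 15878 probes, 0 of the 25 genes had an adjusted p under 0.05, and 0 had an unadjusted p under 0.05. Over all probes 0.0567% passed the adjusted threshold and 4.04% had an unadjusted p under 0.05. The adjusted p-values of the 25 genes lay between 0.934 and 0.982. The log2 fold change, null over wildtype, ran over the genes between -0.63 and 0.07 with a median of -0.27, against a median of -0.01 over all tested genes. It was below 0 for 24 of the 25, where 52.4% of all tested genes were below 0, and the exception was Pes1, which was also below 0 under median scaling. For 0 of the 25 genes did the groups separate without overlap, against 9.61% of all tested genes. These are bulk samples, in which fewer cells of a type and less RNA per cell cannot be told apart.

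The differences lay mostly in 1 array. Relative to the wildtype mean, the 25 genes lay between -0.14 and 0.24 in null replicate 1, with a median of 0.00. They lay between -0.32 and 0.46 in null replicate 2, with a median of 0.04, and between -1.76 and -0.14 in null replicate 3, with a median of -0.89. The single wildtype arrays covered -0.36 to 0.35, with medians of -0.05, 0.03 and 0.02, and both limits came from the dim gene Rrs1. The medians of null replicates 1 and 2 were thus near those of the wildtype arrays. In single genes null replicate 2 lay outside the wildtype arrays, as in Cad (0.46, against -0.12 to 0.14), Hspe1 (0.34, against -0.13 to 0.07) and Pa2g4 (-0.32, against -0.07 to 0.07). So did null replicate 1, as in Cad (0.24), Rrp9 (0.20, against -0.02 to 0.01), Pes1 (0.19, against -0.10 to 0.11) and Ddx21 (-0.09, against -0.06 to 0.03). Null replicate 3 was more than 0.5 below the mean of the other null arrays in 24 genes, all but Pes1, and more than 1 below it in 11. Null replicate 3 was the lowest array for 25 of the 25 genes, or for 24, all but Pes1, under median scaling. For all tested genes it was the lowest in 35.4%. In null replicate 3 the quartiles of the 25 genes were -1.20 and -0.66, against -0.36 and 0.29 for all tested genes.

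**Figure D1:**
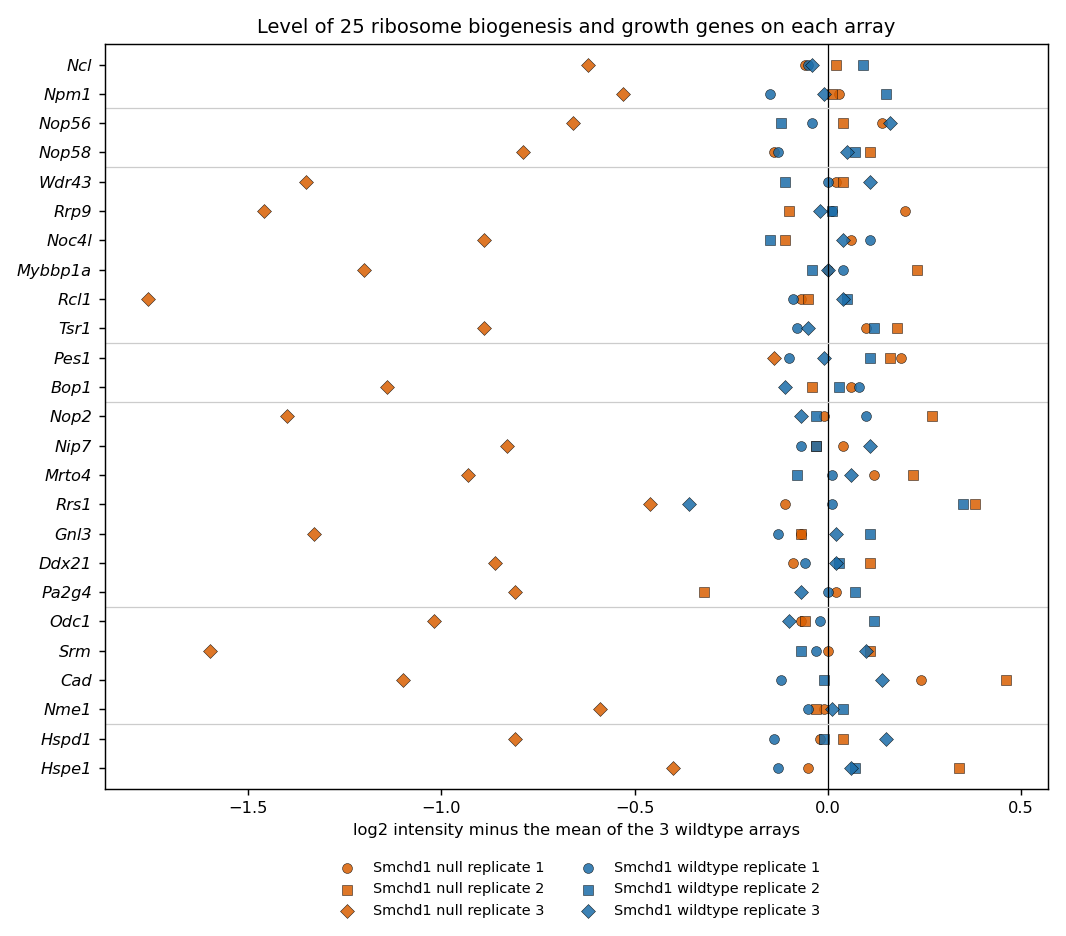
Each row is a gene, grouped by role with grey lines, and each point is 1 array, placed by its log2 intensity minus the mean of the 3 wildtype arrays. Null replicate 3 (orange diamonds) lies between -1.76 and -0.14, lowest of the 6 arrays in each row, while null replicates 1 and 2 lie between -0.32 and 0.46.

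**Figure D2:**
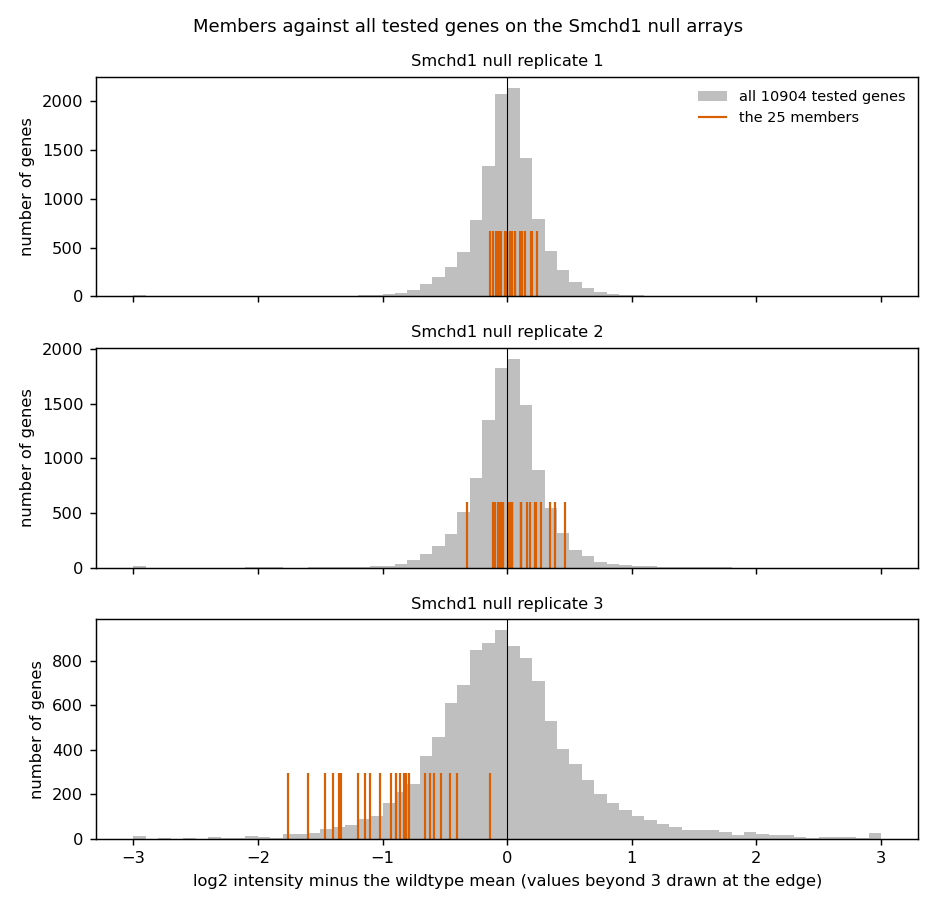
Histograms of log2 intensity minus the wildtype mean for 10904 tested genes (grey) on each null array, with the 25 genes as orange lines. The lines centre at 0.00 and 0.04 in null replicates 1 and 2 and at -0.89 in null replicate 3, where the median of all tested genes is -0.04.

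Among the abundant scaffold proteins of the nucleolus, nucleolin (Ncl), which binds ribosomal RNA precursors, had log2 intensities of 11.26, 11.34 and 10.71 in null replicates 1, 2 and 3, against 11.27, 11.41 and 11.28 in wildtype. Only null replicate 3 stood apart, and the groups overlapped. The log2 fold change was -0.22 (SE 0.20), and it was -0.02 (SE 0.12) without that array. Nucleophosmin (Npm1), a chaperone of histones and ribosomal proteins, had one of -0.16 (SE 0.20), and 0.02 (SE 0.14) without that array, with null replicate 3 at 13.90 and the other 5 arrays at 14.29 to 14.58.

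Nop58 and Nop56 are core proteins of the box C/D snoRNPs, which methylate ribosomal RNA. Nop58 had 11.81, 12.06 and 11.16 in null replicates 1, 2 and 3, against 11.82, 12.02 and 12.00 in wildtype, again with 1 low array. Its log2 fold change was -0.27 (SE 0.24), and -0.01 (SE 0.14) without null replicate 3. Nop56 had -0.16 (SE 0.23), and 0.09 (SE 0.14) without that array. Nolc1, which helps assemble snoRNPs and was detected on every array but null replicate 3, had 5.25, 6.51 and 4.98 in the null replicates, against 5.60, 6.26 and 6.17 in wildtype.

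The 6 measured genes grouped under the small subunit had a median of -1.28 in null replicate 3 relative to wildtype, the lowest of the roles. Next was -1.06 for the polyamine and nucleotide enzymes, against -0.86 for the large subunit factors and -0.57 for the nucleolar scaffold genes. No test was made between roles. Rcl1, which in yeast acts in cutting the small subunit RNA precursor, had 11.59, 11.61 and 9.90 in null replicates 1, 2 and 3, against 11.57, 11.71 and 11.70 in wildtype. Null replicate 3 was -1.76 from the wildtype mean and the other 5 arrays lay close together. The log2 fold change of -0.63 was the lowest of the 25 genes but had an SE of 0.44 (limma adjusted p = 0.934), and it was -0.06 (SE 0.12) without null replicate 3. Wdr43, a part of the processome that acts with RNA polymerase I transcription, had 10.35, 10.37 and 8.98 in the null replicates, against 10.33, 10.22 and 10.44 in wildtype. Noc4l, a nucleolar factor of small subunit maturation, had 10.56, 10.39 and 9.61 in the null replicates, against 10.61, 10.35 and 10.54 in wildtype. In both genes null replicates 1 and 2 lay within the wildtype range. The log2 fold changes were -0.43 (SE 0.37) for Wdr43 and -0.31 (SE 0.26) for Noc4l, and 0.03 (SE 0.13) and -0.03 (SE 0.14) without null replicate 3. The others were -0.45 (SE 0.40) for Rrp9, a snoRNP protein of early precursor cleavage, -0.32 (SE 0.35) for the nucleolar Myb-binding protein Mybbp1a and -0.20 (SE 0.29) for Tsr1, a late factor of the small subunit. Without null replicate 3 these 3 lay at 0.05, 0.12 and 0.14.

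Pes1 and Bop1 are partners in the PeBoW complex, which processes the RNA of the large subunit. Pes1 had 9.16, 9.14 and 8.83 in the null replicates, against 8.87, 9.09 and 8.96 in wildtype, so that null replicate 3 was -0.14 from the wildtype mean, the smallest gap of the 25 genes. Its log2 fold change of 0.07 (SE 0.15) was the highest of the 25, and it was 0.17 (SE 0.13) without that array. Bop1 had 11.05, 10.95 and 9.86 in the null replicates, against 11.07, 11.02 and 10.88 in wildtype, a log2 fold change of -0.37 (SE 0.31) that was 0.01 (SE 0.13) without null replicate 3. The difference between the partners was not tested.

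For the assembly of the large subunit, 7 genes were measured. Nucleostemin (Gnl3), a nucleolar GTPase of stem and proliferating cells, had 13.01, 13.01 and 11.75 in null replicates 1, 2 and 3, against 12.95, 13.20 and 13.10 in wildtype. Pa2g4, a growth-regulated protein that binds ribosomes, had 11.62, 11.28 and 10.79 in the null replicates, against 11.60, 11.67 and 11.53 in wildtype. Here null replicate 2 was also below the wildtype arrays, while null replicate 1 was within them. Pa2g4 had the smallest unadjusted p of the 25 genes (limma unadjusted p = 0.135, limma adjusted p = 0.934), and its log2 fold change was -0.37 (SE 0.22) with all arrays and -0.15 (SE 0.15) without null replicate 3. Gnl3 had one of -0.49 (SE 0.34), and -0.07 (SE 0.13) without that array. Mrto4, an assembly factor of the ribosomal stalk, had 10.65, 10.75 and 9.60 in the null replicates, against 10.55, 10.46 and 10.60 in wildtype. For this gene null replicates 1 and 2 were the highest and null replicate 3 the lowest, giving -0.20 (SE 0.30) with all arrays and 0.17 (SE 0.12) without null replicate 3. Rrs1, a regulator of ribosome synthesis first described in yeast, was dim and scattered within both groups, at 6.16, 6.65 and 5.81 in the null replicates, against 6.28, 6.62 and 5.91 in wildtype. Its wildtype SD of 0.35 was the largest of the 25, and its null replicate 3 lay just under wildtype replicate 3. The log2 fold change was -0.06 (SE 0.27), and 0.13 (SE 0.24) without null replicate 3. The RNA methyltransferase Nop2, the RNA helicase Ddx21 and the assembly factor Nip7 had log2 fold changes of -0.38 (SE 0.40), -0.28 (SE 0.25) and -0.27 (SE 0.24). Without null replicate 3 these were 0.13, 0.01 and 0.00.

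Enzymes that feed growth showed the same single low array. Ornithine decarboxylase (Odc1), which starts polyamine synthesis and is a long-known Myc target, had 12.39, 12.41 and 11.45 in null replicates 1, 2 and 3, against 12.45, 12.58 and 12.37 in wildtype. Spermidine synthase (Srm), a later enzyme of that pathway, had 11.98, 12.10 and 10.39 in the null replicates, against 11.96, 11.92 and 12.08 in wildtype. The log2 fold changes were -0.38 (SE 0.27) for Odc1 and -0.50 (SE 0.43) for Srm, and -0.07 (SE 0.13) and 0.05 (SE 0.13) without null replicate 3. Cad, the multienzyme protein that begins pyrimidine synthesis, had 9.02, 9.24 and 7.68 in the null replicates, against 8.65, 8.76 and 8.91 in wildtype. Its null replicates 1 and 2 were the highest arrays and null replicate 3 the lowest. With all arrays the log2 fold change was -0.13 (SE 0.39), and without null replicate 3 it was 0.35 (SE 0.14), the largest of the 25 genes, with an unadjusted limma p of 0.0444 and an adjusted p of 0.651. The nucleoside diphosphate kinase Nme1 had 14.11, 14.09 and 13.53 in the null replicates, against 14.07, 14.17 and 14.14 in wildtype. Its log2 fold change was -0.21 (SE 0.19), and -0.02 (SE 0.12) without null replicate 3.

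Hspd1 and Hspe1 encode the chaperonin that folds proteins in the mitochondrial matrix and its lid. Hspd1 had 12.98, 13.04 and 12.18 in null replicates 1, 2 and 3, against 12.85, 12.98 and 13.14 in wildtype. Hspe1 had 10.80, 11.19 and 10.44 in the null replicates, against 10.72, 10.92 and 10.91 in wildtype. Although their starts lie side by side, null replicate 3 was -0.81 from the wildtype mean for Hspd1 and -0.40 for Hspe1, and null replicate 2 was the highest array for Hspe1. On a second probe of Hspd1 null replicate 3 lay at -1.53, and the difference between Hspd1 and Hspe1 was not tested. The log2 fold changes were -0.26 (SE 0.25) and -0.04 (SE 0.21), and 0.01 (SE 0.14) and 0.15 (SE 0.16) without null replicate 3.

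Without null replicate 3, 8 of the 25 genes had a log2 fold change below 0 and 17 one above it (Nip7 at 0.00 when rounded), where 49.1% of all tested genes were below 0. The values ran between -0.15 (Pa2g4) and 0.35 (Cad), with a median of 0.02, against 0.00 over all tested genes. None of the 25 passed the adjusted threshold, which 0.258% of probes passed in that fit, and 1, Cad, had an unadjusted p under 0.05, against 7.46% of probes. The median SE of the 25 was 0.13 without that array, against 0.27 with all arrays. The 95% interval of a change extended 0.28 to 0.58 to either side without that array, with a median of 0.31. The intervals reached down to -0.50 and up to 0.71, so these arrays leave room for changes of that size in single genes.

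**Figure D3:**
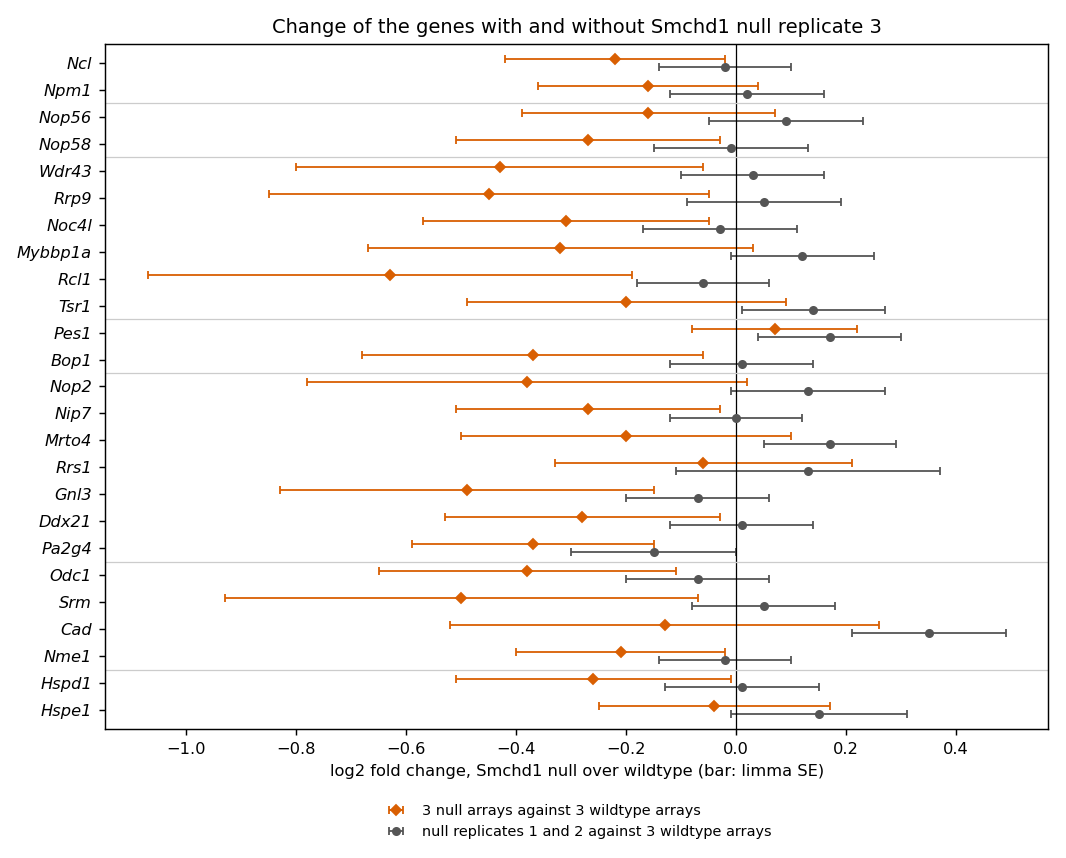
Log2 fold change of each gene, Smchd1 null over wildtype, with limma's SE as bars, for all arrays (orange) and without null replicate 3 (grey). With all arrays the values run between -0.63 and 0.07, and without null replicate 3 between -0.15 and 0.35 with shorter bars.

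The low values in null replicate 3 were seen by more than 1 probe in most genes where this could be checked. Of the 25 genes, 11 had more than 1 probe detected on all 6 arrays. Of their 17 probes that were not the brightest, 15 were also lowest in null replicate 3, and with all arrays no gene had probes on both sides of 0 in the log2 fold change. Without null replicate 3 the probes of Bop1 (-0.44 to 0.01), Ddx21, Gnl3, Hspd1, Noc4l and Tsr1 lay on both sides of 0. The probes disagreed in size. Relative to the wildtype mean, null replicate 3 lay at -0.86 on the brightest probe of Ddx21 and at -1.68 on the other, and between -2.11 and -1.33 on 3 probes of Gnl3. The exceptions were the second probes of Tsr1 and Bop1, where null replicate 3 lay at -0.11 and -0.27 and another array was lowest. The standard error of the bead intensities behind 1 value was at most 6.27% in the 25 genes, from 21 to 62 beads per probe and array. Across the 25 genes, the level in wildtype and the gap of null replicate 3 had a Pearson r of -0.06 and a Spearman rho of 0.02, over points that share the same arrays and differ in probe sequence.

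**Figure D4:**
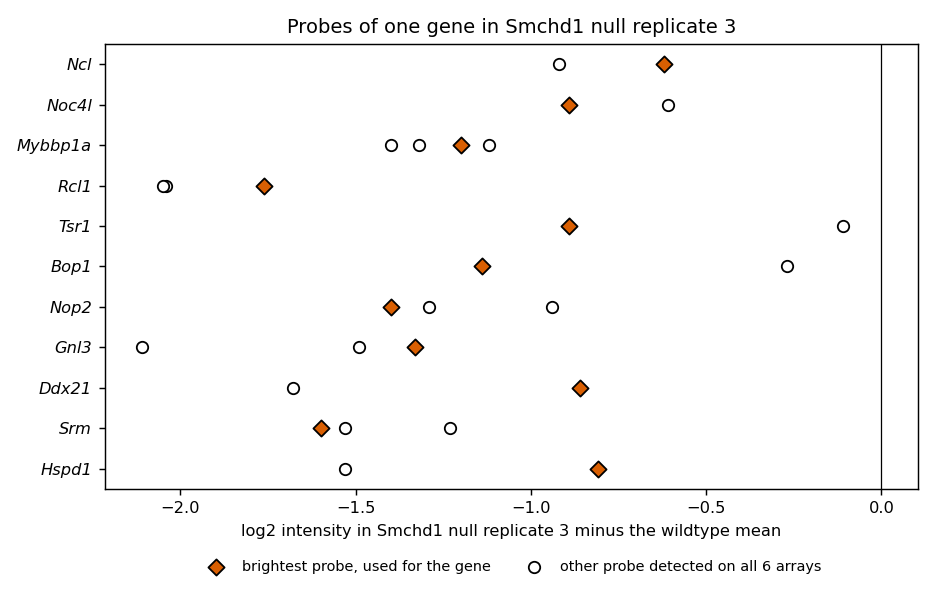
Log2 intensity in null replicate 3 minus the wildtype mean for the 11 genes with more than 1 probe detected on all 6 arrays. Orange diamonds are the brightest probe and open circles the others, which all lie below 0 and reach -2.11 in Gnl3.

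Other genes of the pathway were read in the same way. Of 117 other ribosome biogenesis genes, 99 were tested, and 0 of them had an adjusted limma p under 0.05 and 0 an unadjusted p under 0.05. Their log2 fold change was below 0 in 87 and had a median of -0.22, and null replicate 3 was lowest for 91 (91.9%). Without that array 32 were below 0, the median was 0.05, 0 passed the adjusted threshold and 1 had an unadjusted p under 0.05. Those with the smallest p were Exosc5, a subunit of the RNA exosome, at -0.52 (SE 0.25), Ddx10, an RNA helicase, at -0.65 (SE 0.31), Tbl3, a processome protein, at -0.36 (SE 0.20), and the nucleolar protein Nol8 at -0.52 (SE 0.29). Without null replicate 3 the log2 fold changes were -0.26 for Exosc5, -0.31 for Ddx10, -0.20 for Tbl3 and -0.17 for Nol8. Polr1a and Polr1b, the large subunits of RNA polymerase I, were on the array under older names than those searched. Polr1a had 11.59, 11.63 and 10.24 in null replicates 1, 2 and 3, against 11.56, 11.55 and 11.51 in wildtype. Polr1b had 9.54, 9.92 and 8.01, against 9.64, 9.77 and 9.66 in wildtype. Their log2 fold changes were -0.39 (SE 0.36) and -0.53 (SE 0.45), and 0.07 (SE 0.11) and 0.04 (SE 0.15) without null replicate 3.

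A list of 46 other genes of Myc-driven growth also held Myc and Max themselves. Of these 46, 39 were tested, 0 with an adjusted and 0 with an unadjusted limma p under 0.05. Their median was -0.19, 34 were below 0, and null replicate 3 was lowest for 33 (84.6%). Without that array 20 were below 0, the median was -0.01, and 0 had an adjusted or an unadjusted p under 0.05. Myc itself had 8.51, 8.32 and 6.24 in null replicates 1, 2 and 3, against 8.49, 8.53 and 8.82 in wildtype, on the 1 of its 2 probes that was detected. Null replicate 3 was the low array and the other 5 lay at 8.32 to 8.82. The log2 fold change was -0.92 (SE 0.56, limma adjusted p = 0.934), and -0.20 (SE 0.15) without that array. The labels do not say whether this probe reads the transgene, the endogenous gene or both. Its partner Max had 7.35, 6.76 and 6.36 in the null replicates, against 7.15, 7.39 and 7.71 in wildtype, a log2 fold change of -0.59 (SE 0.27), and -0.36 (SE 0.23) without null replicate 3. The arginine methyltransferase Prmt5 had -0.65 (SE 0.32), the mitochondrial chaperone Trap1 had -0.47 (SE 0.25), and cyclin D2 (Ccnd2) had 0.94 (SE 0.55). These were -0.25 for Prmt5, -0.20 for Trap1 and 0.42 for Ccnd2 without null replicate 3.

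Markers of cell types also differed between the arrays, some in null replicate 3 and others most in null replicates 1 and 2. The median of the 11 tested of 16 pre-B cell markers was 0.93 above the wildtype mean in null replicate 3, and -0.05 and 0.07 in null replicates 1 and 2. Null replicate 3 was highest for 9 of the 11, but these markers did not move as one. Bach2 had 10.05, 9.91 and 10.27 in null replicates 1, 2 and 3, against 10.61, 10.66 and 10.80 in wildtype. Igll1 (11.96 and 11.97) and Vpreb1 (11.07 and 11.34) were below every wildtype array in null replicates 1 and 2. These 3 were chosen after their values were seen. Without null replicate 3, 6 of the 11 were above 0 and 5 below. The summed level of the 11 on the log2 scale was 14.60 to 16.28 in null, against 14.77 to 14.83 in wildtype, with Dntt not detected on any array. For 2 tested of 7 megakaryocyte and mast cell markers the median was 2.11 in null replicate 3, and -0.81 and -0.66 in the other null replicates. The 2 were Pf4, detected on 4 arrays, and Hdc, detected on 5. In null replicate 3 Pf4 was at 8.82 and Hdc at 6.83, against wildtype means of 5.61 and 5.81. Pf4, at 4.77 and 4.91 in null replicates 1 and 2, was near the undetected Smchd1 probe there. The sums of the 2 were 5.90 to 9.14 in null, against 6.70 to 6.75 in wildtype, with Mcpt8 and Ppbp not detected. Hepatocyte markers (12 of 15 tested, without Alb, Apob and Fgb, which were not detected) had medians of -3.47, -3.39 and -1.73 in null replicates 1, 2 and 3, so that null replicate 3 was the nearest to wildtype. Of the 12, 5 fell in null by the limma adjusted p, and 10 did without null replicate 3. Over all probes 0.0567% and 0.258% passed. The groups did not overlap for 11, against 9.61% of all tested genes. Itih3 and Serpina1a were detected on 3 arrays and Afp, Ambp, Ahsg, Apoa1 and Kng1 on 4. The filter thus kept these genes through the arrays where they were high. Ambp, at 4.81 and 4.58 in null replicates 1 and 2, was near the undetected Smchd1 probe there (4.64 and 5.03). Their sums were 8.43 to 9.95 in null, against 11.29 to 11.96 in wildtype. Myeloid markers (12 of 17 tested, with Cd14, Itgam and Mmp8 not detected) had medians of -2.17, -1.88 and -0.17, with sums of 10.87 to 13.65 in null, against 12.29 to 13.75 in wildtype. The myeloid markers did not move as one in null replicate 3, and the following 3 were chosen after their values were seen. Myeloperoxidase (Mpo) was at 12.06 there, against a wildtype mean of 9.02. Prtn3 was at 9.21, against a wildtype mean of 6.41, and Ctsg was at 8.81, against a wildtype mean of 5.79. Each of these granule protein genes was highest in null replicate 3, as was Csf1r, and Cebpe was also above its wildtype mean there. Mpo and Prtn3 were detected on 4 arrays and Ctsg on 3. The rest were below their wildtype means in null replicate 3: Ltf (9.15 against 9.80), Ngp (7.43 against 8.04), Camp (8.23 against 8.59), Lcn2, S100a8, S100a9 and Mmp9. None of the 12 markers passed the test. Erythroid markers (7 of 10 tested, with Epb42 and Gata1 not detected) had medians of -0.95, 0.07 and 0.31. Their sums were 13.91 to 15.78 in null, against 14.50 to 15.25 in wildtype. T and NK cell markers (5 of 11 tested, with Cd3d, Cd3e, Cd4, Cd8a and Ncr1 not detected) had medians of -0.34, 0.49 and -0.91, with summed levels of 9.11, 10 and 9.30 in null replicates 1, 2 and 3, against 9.79, 9.40 and 9.41 in wildtype. The part of these cells in the levels of the 25 genes was not tested.

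**Figure D5:**
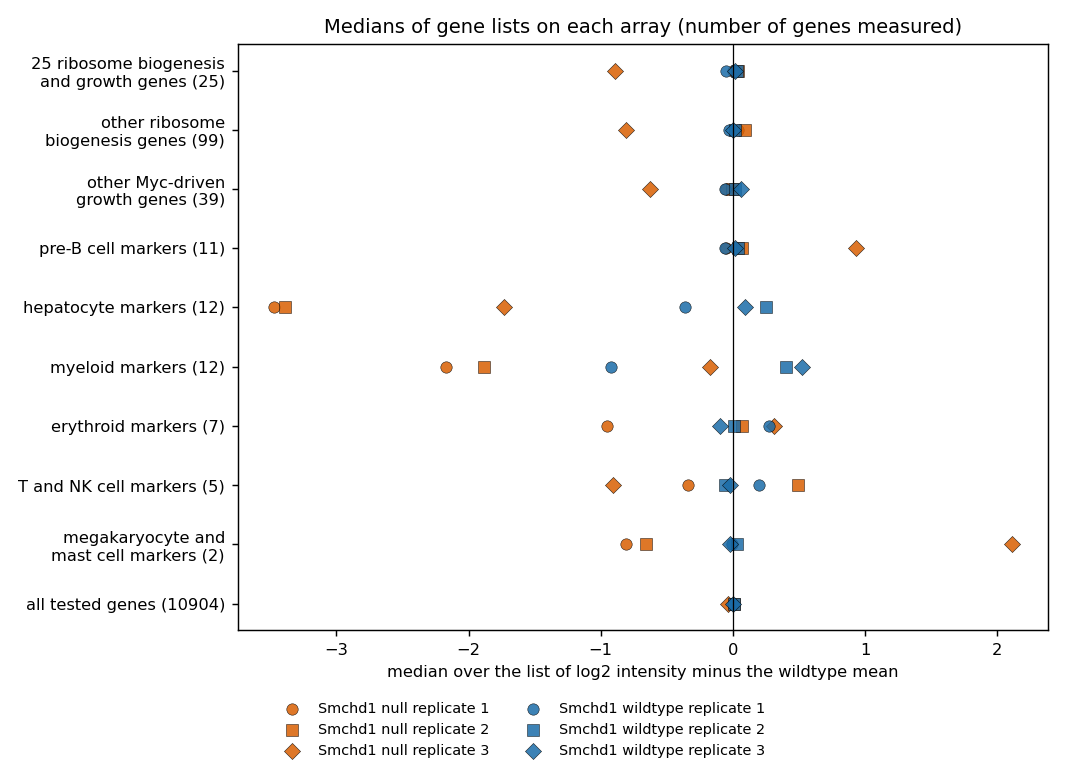
Median over each gene list of log2 intensity minus the wildtype mean, 1 point per array, with the number of measured genes in brackets. In null replicate 3 the 3 lists of growth genes lie at -0.89, -0.81 and -0.63 and the pre-B cell markers at 0.93, while all tested genes lie at -0.04.

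The values of genes with and without CACGTG in the promoter window are given as a description, and their difference was not tested. The 7 measured genes with it had a median gap of -0.89 in null replicate 3, and the 14 without it one of -0.88. Over all arrays the median log2 fold changes were -0.26 and -0.28. Without null replicate 3 they were 0.12 and 0.00. Within the first set the gap ranged between -1.40 in Nop2 and -0.14 in Pes1, whose E-boxes lie on opposite sides of the start.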

How the data were processed

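Per the file headers, GenomeStudio 1.8.0 exported the deposited intensity of each probe, the linear mean over its beads before any normalization, beside deposited bead counts and detection given as a fraction (1 minus the detection p-value). The deposited control table holds 974 control probes, 936 of them negative, with detection p-values. Per the submitters' processing notes, BeadStudio, limma 3.12.1 and R 2.15.1 were used. The authors' log2 values come from neqc, per the deposited commands, and no value was over 5e-09 from its counterpart here.

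Here neqc of limma 3.58.1 in R 4.3.3 was run with an offset of 16. Probes detected (p under 0.05) on at least 3 of the 6 arrays were tested. Smchd1 null was compared with wildtype by lmFit and eBayes, two-sided, with Benjamini-Hochberg adjustment over all 15878 probes and a threshold of 0.05. Genes other than the members were read by their brightest tested probe and named through RefSeq (GRCm38.p6), which matched 78.9% of probes. The members, lists and tests were chosen with earlier results of these data known. Values per array are given for the 8 members with the smallest p, the 3 with the highest and the 3 with the lowest change, the smallest p in each role and the 3 in each direction with the largest change without null replicate 3. From each other list the 4 genes with the smallest p are named. The fit was tested on simulated data. Alternatives covered background correction, offset, normalization, filters, moderation, array weights, the replicate block, each array left out, the probe of a gene, the threshold and the matching of names. The number of arrays limits the precision.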

Additional observations from a re-analysis of the deposited data

How the results depend on the processing

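None of the 25 genes passed the threshold under any of the 19 alternatives, nor did any other ribosome biogenesis or growth gene under those run for it. The count with an unadjusted limma p under 0.05 did move. With median scaling it was 3 of the 25, 7 of the 99 other ribosome biogenesis genes and 9 of the 39 growth genes, against 589 of 15878 probes. Without null replicate 1 it was 1, 8 and 5, against 1461 probes. The adjusted p-values of the 25 ran between 0.506 and 1 over the alternatives. The count of probes over the whole array was less stable. Against 9, it was 5 with normexp without control probes and an offset of 50 (with the offset of 50 alone it was 9), 3 without background correction, 56 with median scaling, 2 when each array had to reach a detection p under 0.01, 52 with array weights, 14 at an adjusted p under 0.10 and 2 with the replicate block. It was 2 to 41 when 1 array was left out, the highest without Smchd1 null replicate 3 and 2 to 4 without any 1 other. The median change of the 25 genes, -0.27, was -0.49 with median scaling, which moved the median of all probes to -0.18. It was -0.04 with array weights, which gave null replicate 3 a weight of 0.165 against 0.664 to 2.22 for the others, and -0.42 to 0.02 when 1 array was left out, the highest without null replicate 3.

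The sign turned in single genes, none of them past the threshold. With array weights it turned in Nop56 (0.01), Mybbp1a (0.11), Tsr1 (0.09), Nop2 (0.14), Mrto4 (0.14), Rrs1 (0.24), Cad (0.30) and Hspe1 (0.19), and with median scaling in Pes1 (-0.14). Leaving out 1 array gave ranges that cross 0, with the highest value without null replicate 3: Npm1 -0.26 to 0.02, Nop56 -0.31 to 0.09, Wdr43 -0.66 to 0.03, Rrp9 -0.78 to 0.05, Mybbp1a -0.60 to 0.12, Tsr1 -0.39 to 0.14, Bop1 -0.59 to 0.01, Nop2 -0.71 to 0.13, Mrto4 -0.40 to 0.17, Rrs1 -0.28 to 0.13, Ddx21 -0.47 to 0.01, Srm -0.80 to 0.05, Cad -0.43 to 0.35, Hspd1 -0.41 to 0.01 and Hspe1 -0.23 to 0.15. Rrs1 also turned without wildtype replicate 2 (0.11). Array weights gave null replicate 3 the least weight but also weighted the other arrays unequally. Why the signs turned was not tested under any setting.

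The labels do not say whether arrays of the same replicate number were paired. Deviations of same-numbered arrays from their group means correlated at 0.02, 0.04 and -0.01, which with so few arrays cannot decide it. The count of the 25 genes past the threshold was 0 with the replicate block, as it was without it.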
